A study of Triticum aestivum with 39 samples.

Results

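The 100 probesets of the Wheat GeneChip described here gave a lower signal in anthers than in any other tissue. They were chosen by the size of that drop among 39454 candidates, so 100 of the 61115 wheat probesets on the array are covered. The array had been hybridized with RNA from 13 tissues of wheat (*Triticum aestivum*) cv. Chinese Spring, with 3 biological replicates each and no treatment, which gave 39 arrays. Seed that had germinated gave coleoptile, root and embryo samples (the study's list of tissues has a mesocotyl, probably the organ labelled embryo of germinating seed), and seedlings of about 10 cm gave leaf, root and crown. The other 7 tissues were the immature inflorescence, the floral bracts, pistil and anthers before anthesis, the caryopsis at 3-5 DAP (days after pollination), and the embryo and the endosperm at 22 DAP. Bracts, pistil and anthers had been taken 2 days before anthesis from the central floret of 10 spikes per collection, so the 3 floral organs came from florets of the same stage. Each sample pooled organs of 10 plants, spikes or seeds, and no mutant or transgenic line was used.

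The anther is the organ in which pollen is made. Its inner cell layer, the tapetum, feeds the developing pollen and breaks down before the pollen is shed, so an anther shortly before anthesis consists of wall layers around nearly mature pollen. In plants such as Arabidopsis, mature pollen holds transcripts of fewer genes than leaves or roots do, and many genes that are used throughout the vegetative plant have little mRNA in it. RNA was taken from whole organs, and a smaller share of cells with a transcript cannot be told apart from less of that transcript per cell.

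A probeset is a group of short probes designed against 1 expressed sequence. Wheat is hexaploid and has homoeologs, copies of a gene in its A, B and D genomes. The study judged it likely that for most genes a signal sums over these copies. Levels are given as log2(signal + 16), where the signal is the linear signal of the MAS5 program, and a difference of 1 on this scale is a change of 2-fold or more in signal. Candidates were the probesets with names that start with Ta. or TaAffx., without the suffixes for cross-hybridizing probes (_s_at, _x_at, _a_at) or for uncertain orientation (.A1), which left 39564. The 110 of these that are paired with a named gene were dropped. For each candidate the mean of the 3 anther arrays was subtracted from the lowest of the 12 other tissue means, and this difference is called the gap. The 100 candidates with the largest gap were selected on these values, so the gaps and anther levels below describe the choice and were not tested. The gaps of the members ran from 2.05 to 5.32 with a median of 2.49. In all, 48 members had a gap of at least 2.5 and 19 a gap of at least 3. Just inside the limit lay TaAffx.123175.1.S1_at, with a gap of 2.06, and Ta.6663.3.S1_at and Ta.22927.1.S1_at, both with 2.05. Just outside it lay Ta.14631.1.S1_at, TaAffx.105292.1.S1_at and TaAffx.61558.1.S1_at, each with a gap of 2.04, so the limit cuts through a continuous series.

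The identity of the organs was checked first. The genes listed as anther markers, raftin1a (a protein of the tapetum that is deposited on pollen) and WZF1, had their highest mean of the 13 tissues in anthers, but WZF1 in anthers (11.52 ± 0.18) was within the spread of bracts (11.49 ± 0.30) and does not separate these organs. The leaf genes PRK (phosphoribulokinase of the Calvin cycle) and OEE2 (a subunit of the oxygen-evolving complex) were highest in seedling leaf, at 15.57 and 15.80, and had anther means of 5.68 and 8.26. The third leaf gene on the list, rbcl (the large subunit of Rubisco), has 21 probesets, of which 12 were highest in seedling leaf, 3 in anthers and 6 in other tissues, and the 3 that were highest in anthers had means of at most 6.21 there. All 7 probesets listed for endosperm and 22 DAP embryo were highest in their organ. The hybridization controls of the anther arrays, between 11.91 and 12.21, lay within the range of the other 36 arrays (10.88 to 12.76). Only seedling leaf (11.905 to 12.59) and 22 DAP endosperm (12.65 to 12.76) reached this level, and no array of the remaining tissues exceeded 11.71. The polyadenylated controls, which are spiked into the RNA, reached at most 5.00 on the 9 arrays of seedling root, pistil and bracts and at least 7.04 on the other 30, the anther arrays among them (7.66 to 8.02). Comparisons of anthers with bracts, pistil or seedling root therefore cross this difference between arrays, and its part in them was not tested.

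In anthers the means of the members lay between 4.31 and 9.36, with a median of 6.16. In the other 12 tissues their lowest means lay between 6.60 and 11.996 (median 8.80) and their highest means between 8.65 and 16.16 (median 12.14). The members' means outside anthers thus ran from 6.60, close to the background described further on, to 16.16. The lowest single array there read 6.14, for TaAffx.84681.1.S1_at. The map of levels shows 1 dark column beside 12 lighter ones. Separately on each array, the median over the 100 members was 6.14, 6.65 and 6.01 on anther replicates 1, 2 and 3, and 9.52 to 11.36 on the other 36 arrays. Against the organs of the same florets, the members exceeded their anther level by a median of 3.22 in the pistil and 3.57 in the bracts, where a reference set of 8310 retained probesets gave 0.41 and 0.21. The members had been chosen for an excess in every other tissue, so their difference from the reference set follows from the choice. The reference set holds the retained probesets whose lowest mean in the other 12 tissues was at least 6.60, the lowest such value among the members. For 99 of the 100 members, all 3 anther arrays were below all 36 other arrays. Among the 39564 retained probesets this held for 2.76%, but the members had been selected on this contrast, so nothing follows from the excess. The exception was Ta.18772.1.S1_at, with 5.28, 7.24 and 4.81 in anthers and a lowest value of 7.15 elsewhere, in seedling leaf.

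**Figure D1:**
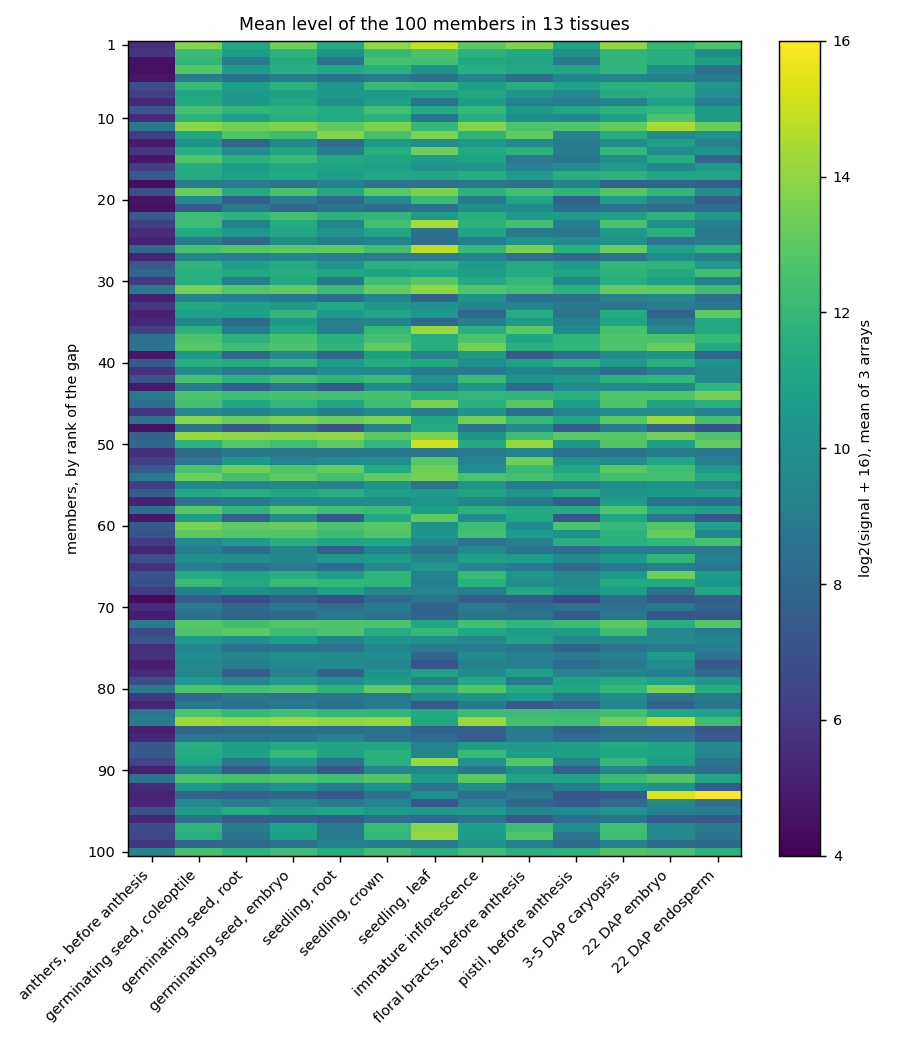
Mean level (colour, log2(signal + 16), mean of 3 arrays) of the 100 members in rows, ordered by gap, in anthers (first column) and the other 12 tissues. The anther column is the darkest in every row, at 4.31 to 9.36, and the brightest cell is Ta.27389.1.S1_at in 22 DAP endosperm at 16.16.

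The member with the largest gap was Ta.396.1.S1_at. Its anther arrays read 6.56, 4.38 and 6.12, and the other 36 arrays ran from 10.50 through a median of 13.07 to 15.31. No array of another tissue came within 3.93 of the highest anther array. The lowest of the other tissues was the pistil of the same stage, at 11.01 ± 0.53 (SD, n = 3), and the highest was seedling leaf, at 14.93 ± 0.34. Its gap of 5.32 is the only one of the 100 above 5. The anther mean (5.68) was not above the background described further on, and the gap was 6.13 with an offset of 1 and 4.33 with an offset of 64.

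The second was Ta.494.1.S1_at, with 6.21, 6.44 and 5.03 in anthers and 9.98, 11.58 and 13.12 as the lowest, median and highest of the other 36 arrays. It was lowest outside anthers in 22 DAP endosperm (10.03 ± 0.04) and its gap was 4.14. Ta.9449.2.S1_at read 5.41, 4.20 and 4.21 in anthers against 8.31 to 13.04 elsewhere (median 11.34), a gap of 4.07. In at least 1 anther replicate both were at or near the background, and in every other tissue both were well above it. TaAffx.78737.1.S1_at read 4.45, 4.42 and 4.67 in anthers, and elsewhere 8.08 to 12.95 with a median of 11.26. Its gap of 3.91 was set by 22 DAP endosperm (8.42 ± 0.45), and the next lowest tissue was at 10.04.

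TaAffx.32000.1.S1_at had one of the flattest profiles outside anthers. It read 4.18, 4.89 and 4.87 in anthers and 7.99 to 9.57 on the other 36 arrays, and its 12 other tissue means spanned 1.26, from bracts (8.22) to pistil (9.48). Its gap of 3.58 was therefore larger than the widest difference among the other tissues. The next 4 members by gap were Ta.9377.1.S1_at (6.74, 7.41 and 6.49 in anthers, gap 3.40), Ta.9416.1.S1_at (6.15, 7.41 and 5.32, gap 3.32), Ta.23156.1.S1_at (5.08, 5.37 and 5.51, gap 3.31) and Ta.16760.1.S1_at (6.81, 7.47 and 7.30, gap 3.27). Their lowest values outside anthers were 10.01, 9.51, 8.42 and 10.33. The tenth, Ta.9319.1.S1_at, had a wider spread in anthers, with 4.95, 6.97 and 4.47, and its lowest value elsewhere was 8.49, in seedling leaf.

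**Figure D2:**
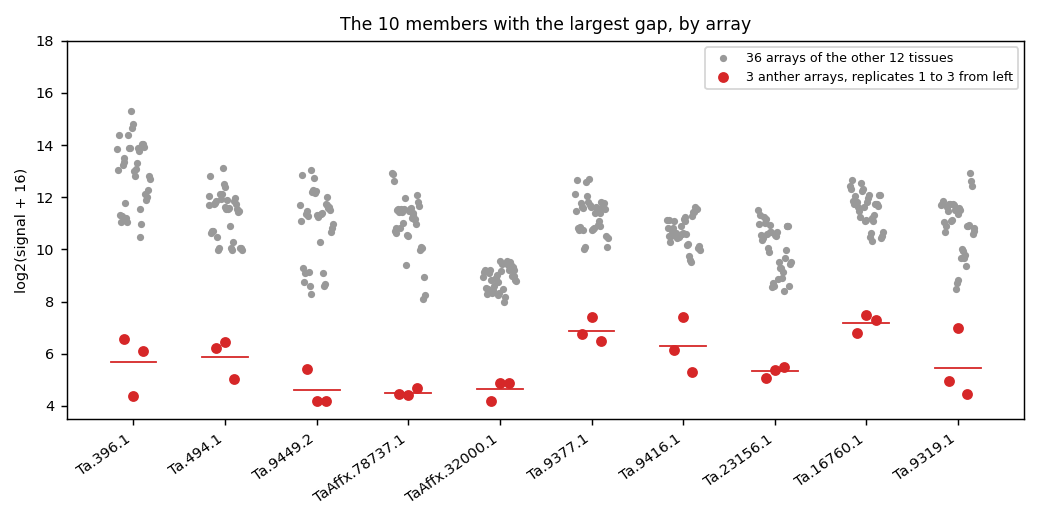
Level (log2(signal + 16)) on every array for the 10 members with the largest gap. Red points are the 3 anther arrays with their mean as a line, grey points the 36 arrays of the other 12 tissues. No grey point overlaps a red one in any of the 10, and the distance is widest for Ta.396.1 (3.93 between the nearest points).

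How low the anther level was could be set against 64 reporter probesets, which do not target wheat and show the background. In anthers the reporters had a median of 5.02 and a 95th percentile of 7.06. Of the members, 15 were at or below the reporter median in anthers, 69 were at or below the 95th percentile, and 31 were above it. A signal above background was thus measured in anthers for 31 members, and for the other 69 the gap depends on the background and the offset. In all other 12 tissues every one of the 100 members was above that tissue's own 95th percentile of reporters. These percentiles lay between 6.003 and 6.48, below that of anthers. Members were taken for a high lowest mean outside anthers (here at least 6.60), so this count describes the choice.

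The highest anther mean was that of Ta.22927.1.S1_at, with 9.13, 9.45 and 9.50 in anthers against 11.14 to 12.78 elsewhere, the last member taken. Next came Ta.20466.1.S1_at (9.07, 9.30 and 8.90, against 10.25 to 14.70) and Ta.1546.1.S1_at (9.09, 9.15 and 8.66, against 11.30 to 13.59). These 3 were well measured in anthers, with SDs of 0.20, 0.20 and 0.27, and still lay 2.05, 2.15 and 2.54 below the lowest other tissue. The lowest was TaAffx.50803.1.S1_at at 4.31, where no level could be told from background and the gap of 2.29 was bounded by the background itself.

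**Figure D3:**
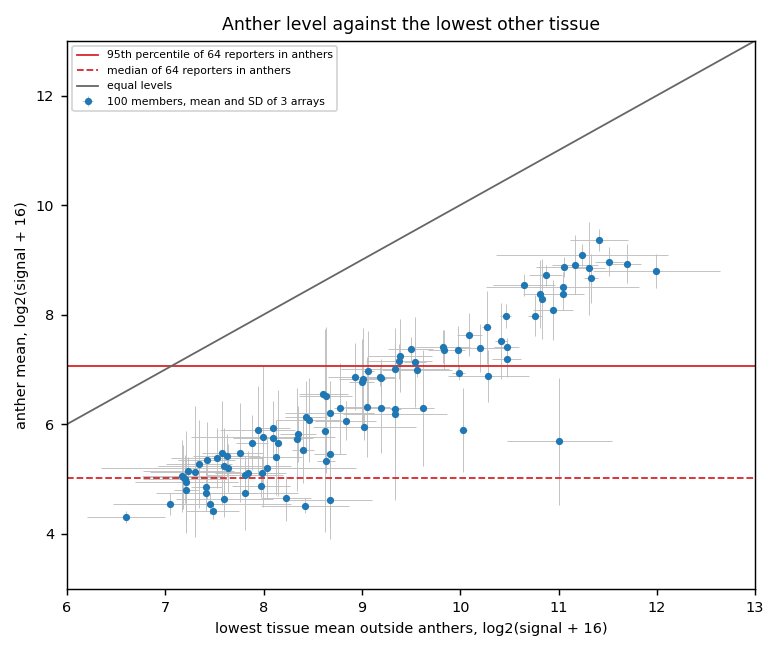
Anther mean against the lowest of the 12 other tissue means for each member (both log2(signal + 16), bars are the SD of 3 arrays). Horizontal lines mark the median (5.02) and the 95th percentile (7.06) of 64 reporters in anthers, and the diagonal marks equal levels, from which all 100 points lie at least 2.05 below.

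The 3 anther replicates did not read alike. The SD of the anther values had a median of 0.47 over the members, 0.17 over the reference set and 0.34 over all retained probesets. The reference set also read higher than the members on the anther arrays, with medians of 9.30, 9.34 and 9.30. The SD exceeded 1 for 8 members and was under 0.25 for 22. Anther replicate 2 was the highest of the 3 for 69 members, replicate 1 for 15 and replicate 3 for 16, where in the reference set replicate 2 was the highest for 37.6%. The widest case was TaAffx.131309.1.S1_at, with 4.92, 8.01 and 4.70 in anthers against 8.42 as the lowest value elsewhere. Named genes went both ways on replicate 2, and the examples given here show no common direction. raftin1a read 8.75, 11.45 and 9.19 on anther replicates 1 to 3 and OEE2 read 7.45, 9.35 and 7.99, whereas WZF1 read 11.46, 11.38 and 11.73. GLU1A (7.43, 6.41 and 7.64) and the histone H2A-9 probeset Ta.27657.1.S1_at (9.61, 8.26 and 8.54) were also lowest on replicate 2. Whether the members' values on replicate 2 are tied to those of raftin1a and OEE2 was not tested. Without anther replicate 2 the median gap of the members was 2.68, and both remaining anther arrays were below all other arrays for 100 members.

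Whether the low anther level recurred on arrays that had not been used in the choice was looked at by repeating the choice on 2 of the 3 replicate numbers. Of the 100 probesets so chosen, 82, 86 and 81 were members when replicate 1, 2 or 3 was held out. In the held-out arrays anthers were the lowest tissue for 98, 100 and 98 of them, with a median gap of 2.48, 2.08 and 2.62. Over all candidates, which were not matched to the chosen probesets in level, anthers were lowest on the same arrays for 8.93%, 8.90% and 9.57%. All 3 replicates had entered the choice of the members, so these counts describe the rule and are no separate test of the members. The held-out gap was smallest on replicate 2, the array on which most members read highest in anthers.

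The same rule applied to each of the other 12 tissues gave shallower lists. The median gap of the top 100 was 2.49 for anthers, 1.67 for 22 DAP embryo, 1.65 for 22 DAP endosperm, 1.37 for floral bracts and 1.30 for seedling leaf, and fell to 0.45 for seedling crown. A gap of at least 1 was found for 577 candidates in anthers, against 254 in endosperm and 1 in crown. These differences between lists are descriptions of 13 tissues and carry no test.

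**Figure D4:**
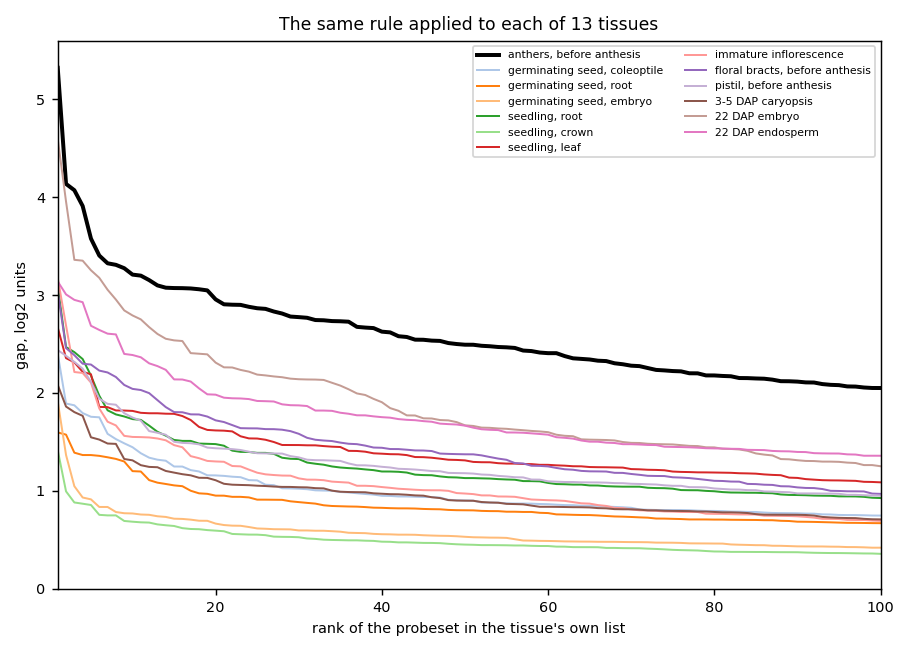
Gap (log2 units) of the 100 probesets with the largest gap in each of the 13 tissues, each ranked within its own list. The anther curve (black) starts at 5.32 and ends at 2.05, above all other curves over the whole range. The 22 DAP embryo starts at 4.60 and ends at 1.25.

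No anther value enters the differences among the other 12 tissues, but the rule took the lowest of these 12 means, so the values below are not free of the choice. All 100 varied among them (F test in limma, adjusted p under 0.05), where 66.6% of all retained probesets and 98.1% of the reference set did, so variation as such does not separate the members from other well-measured probesets. The range of their 12 means had a median of 2.55 and ran from 1.20 to 8.93. The flattest were TaAffx.83919.1.S1_at (7.76 in seedling leaf to 8.96 in the inflorescence), Ta.18737.1.S1_at (8.15 to 9.40, range 1.26), TaAffx.32000.1.S1_at, Ta.20705.1.S1_at (10.47 to 11.75, range 1.28) and Ta.22927.1.S1_at (11.41 to 12.74, range 1.33). For these 5 the drop in anthers was larger than any difference among the other tissues.

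At the other end stood Ta.27389.1.S1_at. It read 16.10, 16.22 and 16.16 in 22 DAP endosperm and had a mean of 15.41 in 22 DAP embryo, while the other 10 tissue means outside anthers ran from 7.24 in seedling root to 9.83 in seedling leaf. In anthers it read 5.34, 5.25 and 4.85. It was thus by far highest in the late seed, and anthers lay below the 10 remaining tissues. The next 4 by range were highest in seedling leaf: Ta.1381.1.S1_at (13.07, range 5.86), Ta.8694.2.S1_at (14.15, range 5.52), TaAffx.123175.1.S1_at (14.04, range 5.43) and Ta.1452.1.S1_at (14.42, range 5.22). Their lowest means outside anthers were 7.21, 8.63, 8.61 and 9.20, in pistil, endosperm, root of germinating seed and pistil.

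The tissue with the highest mean was seedling leaf for 21 members (10.3% of the reference set) and the caryopsis for 10 (3.06%). It was 22 DAP embryo for 16 (13.6%), the coleoptile for 12 (8.86%), the inflorescence for 9 (14.0%) and the pistil for 2 (also 14.0%). The lowest of the 12 was seedling leaf for 20 members, where 25.7% of the reference set were lowest, 22 DAP endosperm for 19 (15.5%) and the pistil for 15 (5.74%). Each tissue mean was also set against the median of the other 11 non-anther tissues. In the pistil 42 members were at least 1 below this median and 0 at least 1 above it, against 10.8% and 13.4% of the reference set, with a median difference of -0.83 for the members and 0.11 for the reference set. The pistil is the second reproductive organ of the same florets, and on its arrays the polyadenylated controls were low. The count below was 38 to 55 and the count above stayed at 0 under 3 other scalings of the arrays, where the reference set gave 10.8% to 16.2% below and 9.21% to 13.9% above.

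In 22 DAP endosperm, 47 members were at least 1 below the median of the other 11 and 8 at least 1 above it, against 19.7% and 13.3% of the reference set. The endosperm arrays also had the highest hybridization controls (12.65 to 12.76), and when arrays were scaled to these controls the count below was 89 and the reference share 68.9%. Seedling leaf divided the members, with 27 at least 1 above and 29 at least 1 below (reference set 10.8% and 23.7%). This division was not even under other scalings, with 22 above and 35 below after scaling to the same median, and 14 above and 55 below after scaling to the hybridization controls. In the crown, the embryo of germinating seed and the caryopsis the members stood above the median of the other tissues more often than below it, by counts of 11 and 1, 7 and 1, and 14 and 3. The shares of the reference set were 2.82% and 1.16%, 2.85% and 2.11%, and 5.79% and 5.14%. The members were thus lowest, after anthers, in endosperm (median level 9.55) and pistil (9.61), and highest in coleoptile (11.25), embryo of germinating seed (11.10) and crown (11.03).

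**Figure D5:**
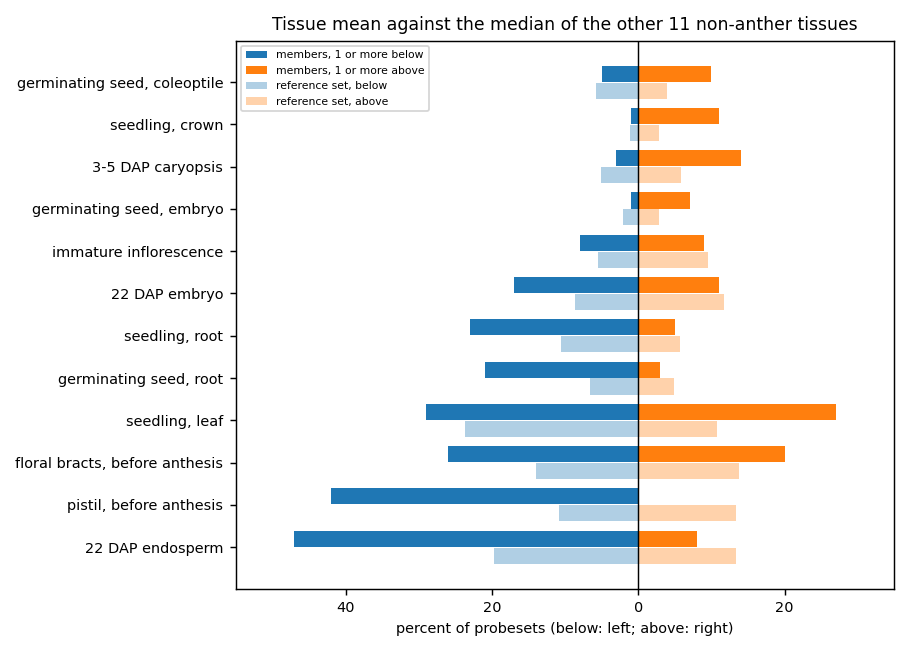
Percent of the 100 members (dark bars) and of the 8310 probesets of the reference set (pale bars) whose mean in a tissue was at least 1 log2 unit below (left, blue) or above (right, orange) the median of the other 11 non-anther tissues. In the pistil 42 members lie to the left and 0 to the right.

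The other comparisons were made within 4 pairs of other tissues, each of which had polyadenylated controls of the same kind in both tissues. They were fitted in limma over all retained probesets. A probeset was called at an adjusted p under 0.05 (Benjamini-Hochberg) and a difference of at least 1. Of the members, 18 were called in none of the 4 comparisons, 24 in 1, 37 in 2, 15 in 3 and 6 in all 4. With 3 arrays per tissue, the p-values measure the spread between biological replicates as the study defines them.

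Between the endosperm, the storage tissue of the grain, and the embryo of the same age, 44 members were lower in 22 DAP endosperm than in 22 DAP embryo and 8 were higher. Of all retained probesets 12.5% were lower and 16.3% higher, and of the reference set 23.8% and 13.5%. Ta.6608.1.S1_at read 8.40, 7.36 and 7.69 in endosperm and 11.39, 11.40 and 11.53 in embryo, a difference of -3.63 ± 0.30 (SE, adjusted p = 2.77e-11 in limma). Among the 8 higher in endosperm, Ta.9905.1.S1_at read 13.12, 13.19 and 12.84 in endosperm against 7.46, 8.03 and 8.02 in embryo, a difference of 5.21 ± 0.24 (adjusted p = 3.67e-17). The replicates of both tissues did not overlap for either probeset. Under scaling to the hybridization controls 75 members were lower in endosperm and 5 higher.

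In the seedling, 16 members were higher in leaf than in crown and 35 lower, against 11.8% and 11.3% of all retained probesets and 10.2% and 25.6% of the reference set. Ta.30795.1.S1_at read 15.22, 15.04 and 15.10 in leaf and 12.01, 11.95 and 11.74 in crown (3.22 ± 0.16, adjusted p = 1.36e-15). Ta.21917.1.S1_at read 13.36, 12.82 and 12.51 in leaf and 9.68, 10.14 and 9.84 in crown (3.01 ± 0.28, adjusted p = 4.95e-10). Under scaling to the hybridization controls, which moved the median of all retained probesets in this comparison from 0.07 to -0.51, 8 members were higher and 66 lower.

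Within the floret, 30 members were lower in the pistil than in the bracts and 8 were higher. The shares of all retained probesets were 10.6% lower and 7.47% higher, and those of the reference set 11.0% and 12.7%. TaAffx.123175.1.S1_at read 9.06, 8.48 and 8.66 in the pistil and 12.88, 12.62 and 12.76 in the bracts, a difference of -4.02 ± 0.25 (adjusted p = 4.22e-14). Ta.1381.1.S1_at read 7.19, 7.10 and 7.34 in the pistil and 11.18, 11.29 and 11.19 in the bracts (-4.01 ± 0.33, adjusted p = 2.26e-11). Both are highest in seedling leaf, and in anthers of the same stage they read 6.54, 6.54 and 6.57, and 4.68, 4.25 and 5.46. Under scaling to the hybridization controls 45 members were lower in the pistil and 4 higher.

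Between the young caryopsis and the inflorescence, 20 members were higher in the 3-5 DAP caryopsis and 6 lower, where 5.63% of all retained probesets were higher and 9.71% lower (7.79% and 11.8% of the reference set). Ta.9905.1.S1_at, high in endosperm, read 11.13, 11.38 and 11.60 in the caryopsis and 7.92, 7.72 and 8.37 in the inflorescence (3.37 ± 0.24, adjusted p = 2.51e-12). Ta.25762.1.S1_at read 11.50, 11.84 and 11.57 against 8.23, 8.31 and 8.84 (3.18 ± 0.27, adjusted p = 1.40e-10). The split depended on the scaling, with 28 higher and 2 lower after scaling to the same median and 14 higher and 10 lower after scaling to the hybridization controls. The replicates of the caryopsis and of the inflorescence did not overlap for either named probeset.

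Of the members, 7 are paired with a gene, each known in the reference tables by a locus number and without a name or described function, so nothing is said of what they encode. Ta.9520.1.S1_at (LOC543186) read 4.76, 4.92 and 4.26 in anthers and was highest in seedling leaf at 12.18, with a gap of 2.96. It was lower in the pistil than in the bracts by a difference of -3.21 ± 0.25 and higher in leaf than in crown by 2.44 ± 0.25 (adjusted p = 1.29e-11 and 3.84e-09). Ta.1457.2.S1_at (LOC100037538) read 8.09, 8.21 and 7.002 in anthers and between 10.21 and 14.34 elsewhere, with its next lowest level in the inflorescence (10.27). Ta.24150.1.S1_at (LOC543445) read 7.15, 7.77 and 7.14 in anthers and was also lowest elsewhere in the inflorescence (9.83). Ta.25762.1.S1_at (LOC542807), with 5.38, 5.96 and 6.90 in anthers, was again lowest elsewhere in the inflorescence (8.46) and was highest in 22 DAP endosperm at 12.48.

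The caryopsis exceeded the inflorescence for these last 3 by 2.58 ± 0.23, 3.16 ± 0.26 and 3.18 ± 0.27 (adjusted p = 4.40e-10, 5.15e-11 and 1.40e-10). Ta.9316.1.S1_at (LOC543072) read 7.67, 6.20 and 6.42 in anthers, was highest in the root of germinating seed at 12.99 and was higher in the caryopsis than in the inflorescence by 1.13 ± 0.25. Ta.27668.1.S1_at (LOC542903) read 4.38, 5.19 and 5.52 in anthers and peaked in the bracts at 9.11. Ta.152.1.S1_at (LOC543218) read 4.68, 6.54 and 5.21, peaked in the caryopsis at 10.30 and was lower in endosperm than in 22 DAP embryo by a difference of -2.45 ± 0.29 (adjusted p = 5.05e-08). Ta.9520.1.S1_at also was higher in the caryopsis than in the inflorescence (1.59 ± 0.25), whereas the differences of 0.59 ± 0.24 for Ta.27668.1.S1_at and 0.49 ± 0.29 for Ta.152.1.S1_at were not called. The 5 called higher of these 7 stand beside 20 of all 100 members and 5.63% of the retained probesets.

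The tissue profiles of the members outside anthers were compared with those of named genes, in lists made with the results known. One profile was the mean of 8 probesets grouped as photosynthesis, for OEE2, PRK, petC of the cytochrome complex, Trx-M, Prx1 and CL9. The place of the last 2 on the list is less certain than that of the others. Not every retained probeset of these genes was among the 8, and the rbcl probesets were left out. The other profile was that of 7 probesets of histones H2A and H2B, which are made mainly in dividing cells. Pearson's r over the 12 tissue means was at least 0.8 with the photosynthesis profile for 14 members, against 2.76% of the reference set, and with the histone profile for 8, against 5.81%. The 12 points share their arrays and scaling, so r is a description and no p is given. The first 14 included Ta.28558.1.S1_at (r = 0.97, anthers 6.81, 6.88 and 5.27, leaf 14.14), Ta.621.2.S1_at (r = 0.92, anthers 6.31, 7.52 and 6.77, leaf 13.87) and Ta.396.1.S1_at (r = 0.85). Of these 14, 13 were highest in seedling leaf, and their median anther level was 6.004. Among the 8 with the histone profile were Ta.3201.1.S1_at (r = 0.91, anthers 6.93, 7.12 and 6.90, inflorescence 12.16) and Ta.16760.1.S1_at (r = 0.90, inflorescence 11.97). Both were highest in the coleoptile (12.52 and 12.48), and 1 of the 8 was highest in the inflorescence. The other members followed neither profile to that degree. The median r was 0.00 and 0.35, and the lowest r was -0.69 and -0.65. Anther values do not enter r, and most probesets of the 2 profiles were not themselves lowest in anthers. Anthers were the lowest tissue for 1 of the 8 photosynthesis probesets (CL9, gap 3.12) and 1 of the 7 histone probesets (H2A-3, gap 0.40). The gap was -2.99 for OEE2, -1.15 for PRK and -2.83 for the H2A-9 probeset Ta.27657.12.S1_at.

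Some genes are covered by further probesets with the same cluster number, the number after the prefix of a probeset's name. No 2 members shared a cluster number. There were 88 such probesets that the rule had not taken, for 44 members, and 67 of them had been set aside for cross-hybridization or orientation. Anthers were the lowest tissue for 61 of the 88, and the median gap of the 88 was 1.06. The 67 set aside are not among the retained probesets, and no background share was taken for them. Most of the 61 were among the 67 set aside, and most of the other 21 were not lowest in anthers. Both further probesets of Ta.23156.1.S1_at had negative gaps (-0.69 and -0.52). Their anther means (5.06 and 6.08) were below the anther 95th percentile of reporters (7.06), and their medians elsewhere were 4.94 and 6.83. Probesets of 1 cluster can share probes, so they are not independent measurements of the gene. For Ta.2464.1.S1_at, 4 further probesets had gaps of 2.15 to 3.40. Ta.1457.2.S1_at had 2 of the cross-hybridizing type, with gaps of 2.48 and 3.94. Its remaining one, Ta.1457.1.S2_at, was not of that type and not lowest in anthers (gap -0.34, correlation with the member -0.67). Its means were 5.10 in anthers and at most 5.92 elsewhere, within the background in every tissue, so its gap and correlation decide nothing. For Ta.24826.1.S1_at, with a gap of 3.20, the 3 others were also lowest in anthers, with smaller gaps of 0.33 to 0.71. For Ta.27668.1.S1_at the probeset of uncertain orientation, Ta.27668.1.A1_at, was highest in anthers, at 7.23 against at most 6.50 elsewhere. Its anther mean was close to the 95th percentile of reporters there (7.06).

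By their names, 86 members were of the Ta. type and 14 of the TaAffx. type, where 38.9% of the retained probesets and 70.4% of the reference set are of the Ta. type. Anthers were the lowest of the 13 tissues for 23.3% of the reference set and 9.56% of all retained probesets, and the members are the extreme of this larger group. Scaling the arrays in 3 other ways moved the median of all retained probesets in anthers by -0.10 (quantile normalization and equal medians) and -0.38 (hybridization controls). Under each of these, anthers stayed the lowest tissue for all 100 members, with smallest gaps of 1.85, 1.95 and 1.33.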

How the data were processed

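The deposited values are intensity values made by the authors with MAS5 (version not given in the sources used here), 1 linear signal per probeset and array. The RMA values that the study's methods describe were not used here. The number of arrays limits the precision, 3 per tissue. The offset of 16 was added before log2 conversion, with no further scaling. Names of genes came from the array annotation and the RefSeq tables for wheat, by symbol or synonym, and 1273 wheat probesets had a gene. The tables held no descriptions, so grouping members by function gave nothing. The members, lists and named probesets were chosen with earlier results of these data known. Named probesets were the 10 largest gaps, 3 on each side of the limit, those with a gene, the extremes of range and of anther level, the 2 largest called differences of each comparison, and 5 probesets of named genes that were set aside. Ta.18772.1.S1_at, TaAffx.131309.1.S1_at, TaAffx.50803.1.S1_at, the cluster and the profile examples were chosen after their values were seen.

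Each tissue was given its mean in limma 3.58.1 (R 4.3.3) over 39564 probesets with eBayes, with no covariates and Benjamini-Hochberg adjustment over all of them. The code was tested on simulated data with known changes. Tables and figures used Python 3.11.15, numpy 2.4.6, pandas 2.3.3 and matplotlib 3.10.9. The alternatives were quantile normalization, 2 scalings of the arrays, offsets of 1 and 64, a filter on level, all wheat probesets, the trend and robust options, a replicate block, and leaving out replicates or the 9 arrays with low polyadenylated controls. Dropping genes by symbol alone and leaving the anther arrays out of the fit were added after seeing the data.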

Additional observations from a re-analysis of the deposited data

How the results depend on the processing

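The median gap of the members was 2.88 with an offset of 1 and 1.92 with an offset of 64, which by construction stretch or compress low levels. It was 2.30 to 2.57 under the 3 other scalings, 2.40 to 2.71 without 1 replicate number, 2.43 to 2.68 without 1 anther array and 2.62 without bracts, pistil and seedling root, where by construction no gap can fall. Choosing anew under these settings gave 69 to 91 of the same members, fewest after scaling to the hybridization controls, all 100 with the filter on level, and 99 when genes were dropped by symbol alone. Anther arrays stayed below all other arrays for 97 to 100 members. The members differing between endosperm and embryo numbered 80 (5 higher, 75 lower) after scaling to the hybridization controls, against 52. All called members kept their sign under the 5 other scalings and offsets except 1 of 52 in this comparison. The totals of the other 3 comparisons stayed within 1.5 times, but their counts in 1 direction did not, since those of leaf against crown became 8 higher and 66 lower (from 16 and 35) after scaling to the hybridization controls, the 8 higher in pistil than in bracts became 4, and the 6 lower in caryopsis than in inflorescence became 2 to 10 under other scalings. The replicate numbers did not pair the samples, since the deviations of arrays with the same number had correlations of at most 0.10 (median 0.00). With a replicate block the counts were 100, 52, 51, 38 and 26, as without it. The gaps of 29 named members kept their sign under all 8 alternatives tried on them, from 1.25 to 6.13. Members near the background in anthers have gaps limited by that background.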

Other observations

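Of the probesets that were set aside because they are paired with a named gene, 1 would have been a member. CL9 (Ta.14183.1.S1_at) read 4.66, 4.22 and 5.35 in anthers and was lowest elsewhere in the pistil (7.86) and highest in seedling leaf (13.83), a gap of 3.12. Next by gap were 2 probesets of TUB, a tubulin of the microtubules. Ta.1544.1.S1_at read 12.66, 12.33 and 12.36 in anthers against a lowest mean of 14.27 in the pistil (gap 1.81), and Ta.214.1.S1_at read 10.26, 10.22 and 10.20 against 11.96 in the bracts (gap 1.74). The rbcl probeset TaAffx.128414.196.S1_at, for the large subunit of Rubisco, followed with 5.29, 6.86 and 5.62 in anthers and a gap of 1.70. It is 1 of 21 rbcl probesets, of which 3 had a gap above 0, and the other 18 had gaps down to -1.59. A further TUB probeset, Ta.212.1.S1_at, read 11.22, 11.48 and 10.98 against 12.64 in the pistil (gap 1.41). The 3 tubulin probesets were far above background in anthers and their 3 arrays were close together.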
